A study of Mus musculus with 20 samples.

Results

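The regions described here are places on the mouse autosomes where reads of the transcription factor Rfx1 piled up in neural progenitor cells (NPCs) at a promoter marked by H3K4me3. Of 2588 Rfx1 regions found in the NPC library, 2145 lay at such a promoter, and 443 lay away from one. The regions were chosen from measured values. Each is a run of 500 bp bins on chromosomes 1 to 19 with at least 15 distinct Rfx1 reads. Its Rfx1 level was at least 5 times that of embryonic stem (ES) cell whole cell extract with 0.1 added. The 1 kb around a bin of the region had to hold at least 4 RPM of H3K4me3 in ES cells or liver. RPM is distinct reads scaled to 1000000 distinct reads on the autosomes. The Rfx1, whole cell extract and H3K4me3 values at these regions are therefore given as a description, with no test.

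Rfx1 belongs to the regulatory factor X family, whose members bind DNA through a winged-helix domain at an inverted repeat called the X-box. Members of the family are known for their part in the transcription of genes for cilia and for MHC class II molecules. H3K4me3 marks promoters, H3K27ac marks active promoters and enhancers, and p300 is an acetyltransferase that places H3K27ac. H3K4me1 is found at enhancers and on the flanks of active promoters, where the nucleosomes next to the start site tend to carry H3K4me3 in its place.

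The series held 20 libraries of chromatin immunoprecipitation with sequencing (ChIP-seq) in 16 groups. ES cells of the V6.5 line (129JAE-C57/B6) gave H3K27ac (2 libraries), p300 (2), H3K4me3, total H3, whole cell extract and the first H3K4me1 library. The second ES H3K4me1 library came from such cells with the doxycycline-inducible 4f2a transgene, and the third from the inbred C57/B6 line j21. ES cells and the O6 line of induced pluripotent stem (iPS) cells, made from mouse embryonic fibroblasts (MEFs), were grown on MEF feeders until 1 or 2 passages before fixation. NPCs derived from 129JAE-C57/B6 ES cells were plated from embryoid bodies of 4 days, selected in defined medium and grown with FGF and EGF. They gave 1 Rfx1 and 1 H3K27ac library. Whole perfused liver gave H3K27ac, H3K4me1, H3K4me3, H3 and whole cell extract, MEFs gave H3K4me1 and H3, and iPS cells gave H3K4me1. Cell identity was not checked by marker genes, since gene names of the files' build were not analysed here.

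Depth differed between libraries. Rfx1 rests on 694055 distinct autosomal reads, with 72.5% of its reads repeating a position, and ES H3K4me3 on 2319684 with 70.0% repeated. NPC H3K27ac held 6811835, the ES H3K27ac pair 8766359 and 8403078, the p300 pair 6958805 and 8242030, and liver H3K27ac 5049578. The H3K4me1 libraries ranged from 2294246 reads in iPS cells to 14280972 in MEFs. In a bulk sample, a mark in more of the cells and more of the mark in each cell cannot be told apart.

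Rfx1 reads at these promoters formed narrow peaks. The strongest bin of a region held 15 to 447 distinct reads with a median of 38, and the middle 50% of regions held 19 to 96. Regions covered 1 bin in 1724 cases, 2 bins in 411 and 3 or more in 10, the widest being 4500 bp. Together they took 24.5% of all distinct Rfx1 reads in 0.0524% of the bins. Forward and reverse reads were centred 177 bp apart. For the next values each region was centred on the median position of its own Rfx1 reads, which favours a high share near the centre. Of the reads within 1 kb of that position, 75.6% lay within 100 bp of it once moved to the fragment centre. That share was 84.8% in the 443 Rfx1 regions away from promoters. It also rose with Rfx1 strength, from 45.8% in the 25% of regions with the fewest reads (15 to 19) through 61.9% and 76.3% to 81.3% in the 25% with the most (96 to 447).

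The H3K4me3 condition gave 19291 promoter domains, of which 2124 (11.0%) held an Rfx1 region, 21 of them 2. The Rfx1 region lay within 500 bp of the bin with the most H3K4me3 in 1891 cases (88.2%). Domains without an Rfx1 region, 17167 in number, are called other promoters here. Their Rfx1 level was not zero: the median was 7.20 RPM in 2 kb, 29.0% of them held 10 or more reads, and 20.8% held none. At 50 bp from the centre the mean Rfx1 density was 324 RPM per kb at Rfx1 promoter regions, 9.02 at other promoters and 190 at the regions away from promoters.

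The cut at 15 reads divided similar promoters. The 164 regions with exactly 15 reads had a median NPC H3K27ac of 51.5 RPM in 2 kb, and the 278 promoter bins with 14 reads, just outside, had 53.2 RPM. At the H3K4me3 limit the 37 regions with 4 to 5 RPM had a median of 9.10 RPM, and the 41 Rfx1 regions with 3 to 4 RPM, just outside, had 6.90 RPM. The fold condition removed little at this depth, the lowest fold among the regions being 11.2.

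Median H3K27ac in RPM at the Rfx1 promoter regions was highest in NPCs, the cells in which Rfx1 was mapped. The mark was enriched at most of the regions in all 3 cell types assayed. The median in 2 kb was 43.7 RPM in NPCs, 13.2 and 19.2 RPM in the ES libraries and 15.2 RPM in liver. RPM is not scaled between libraries. The trimmed-mean factors used in the tests below were 1.40 for NPCs, 0.740 and 1.02 for the ES libraries and 0.942 for liver. With them the median log2 difference of NPCs from ES cells was 0.70. At other promoters the corresponding medians were 6.90, 6.62, 8.93 and 10.7 RPM. The gap between Rfx1 promoter regions and other promoters was thus widest in NPCs and narrowest in liver. Other promoters entered through H3K4me3 in ES cells or liver, never in NPCs, so this order is in part set by the rule. Where both ES cells and liver had H3K4me3, the NPC medians were 47.1 RPM at Rfx1 regions and 33.3 RPM at other promoters. In the ES libraries they were 14.3 and 11.6, and 20.9 and 16.7 RPM, and in liver 16.4 and 14.7 RPM. Away from promoters the Rfx1 regions were lower than both kinds of promoter, at 4.99 RPM in NPCs, 1.94 and 2.14 RPM in ES cells and 0.594 RPM in liver.

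**Figure D1:**
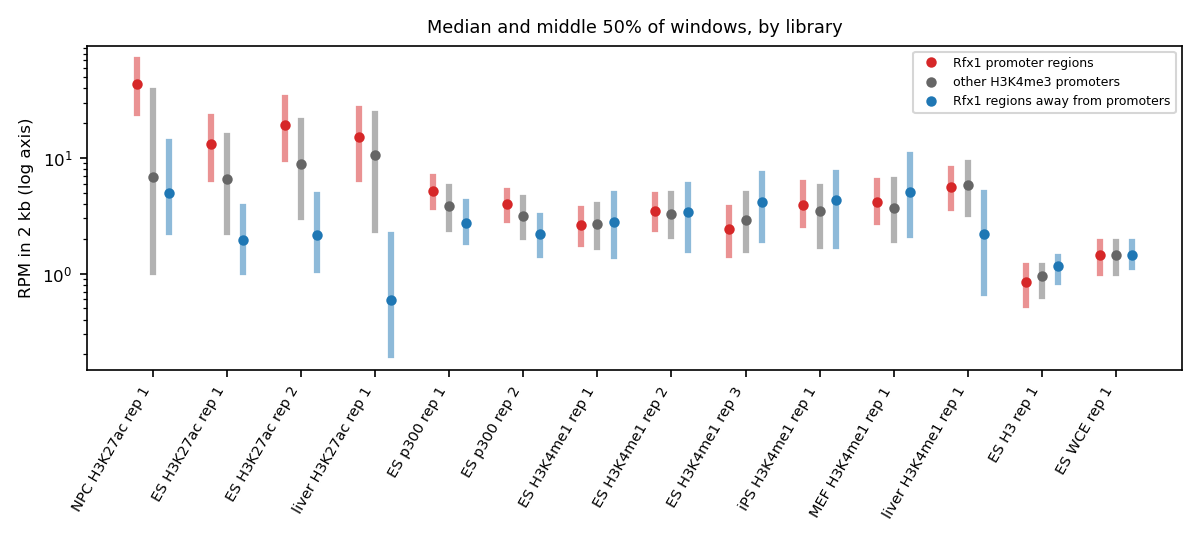
Level of each mark in 2 kb windows (RPM, log axis) in each library named on the horizontal axis. Points are medians and bars span the middle 50% of windows, for Rfx1 promoter regions (red), other H3K4me3 promoters (grey) and Rfx1 regions away from promoters (blue). The largest separation of red from grey is in NPC H3K27ac (43.7 against 6.90 RPM), while the ES H3K4me1 medians of both lie between 2.42 and 3.51 RPM.

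A mark was called enriched where the central 1 kb was at least 2-fold over the region's own flanks 8 to 10 kb away, with 0.2 RPM per kb added, in every library of the group. By this measure 97.7% of the 2145 regions were enriched in NPC H3K27ac, against 73.9% of all promoter windows. In ES H3K27ac the share was 90.8%, against 75.4%, and in liver 87.9%, against 79.1%. Whole cell extract of ES cells, which the choice of regions used, passed the same measure at 13.2% of regions and 13.0% of all windows. That of liver passed at 36.6% of regions and 29.6% of all windows, so the liver share stands on a higher background. The part of that background in the liver difference was not tested. Most regions were acetylated in both NPCs and ES cells (1932, or 90.1%, against 64.9% of all windows), and 1765 also in liver (82.3%, against 56.3%). Of the rest, 67 were enriched in NPCs and in neither ES library, which is 3.12%, against 4.53% of all windows. Another 97 were enriched in NPCs and 1 of the ES libraries, 4.52% against 4.54%. In ES cells and not in NPCs 16 were enriched (0.746%, against 10.6%), in neither cell type 28 (1.31%, against 11.7%) and in 1 ES library alone 5 (0.233%, against 3.79%).

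The difference between NPCs and ES cells was tested with limma across 19190 promoter windows, with the spread taken from the ES pair and the single NPC library assumed to vary alike. H3K27ac was called higher in NPCs at 1194 of the 2144 Rfx1 promoter regions tested, where 30.7% of all windows were called higher. It was called lower at 159, where 32.5% of all windows were called lower. As shares, 55.7% of the regions rose and 7.42% fell. The median log2 difference was 0.70 at Rfx1 promoter regions, -0.06 over all windows and -0.26 at other promoters, and 1732 regions had a positive value. Rfx1 regions needed reads in NPCs, whereas other promoters entered through H3K4me3 in ES cells or liver. A higher difference at the regions than over all windows was thus in part favoured in advance, and the contrast is a description. The ES libraries were at least 2-fold apart at 0.746% of the regions, whereas NPCs were 2-fold apart from the first ES library at 44.5% and from the second at 38.0%. Over all windows these shares were 5.14%, 57.3% and 51.8%.

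How many regions were called depended on the scaling between libraries. Without the trimmed-mean scaling, 847 (39.5%) were called higher and 43 (2.01%) lower, where 24.3% and 21.6% of all windows were. With scaling on bins free of H3K4me3 and Rfx1, 411 (19.2%) were called higher and 17 (0.793%) lower, where 13.7% and 14.4% of all windows were. These settings moved the median of all windows to 0.57 and 0.89, and relative to that median the Rfx1 promoter regions stood at 0.76, 0.81 and 0.83 under the 3 scalings. A scaling moves all windows by about the same amount, so these relative values are no check on it.

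H3K4me3 itself differed between the groups of promoters, and H3K27ac was set against it by class. Of the Rfx1 promoter regions, 1938 had H3K4me3 in both ES cells and liver, 69 in ES cells alone and 138 in liver alone. They made up 17.0% of all windows in the first class, 2.80% in the second and 2.53% in the third. Rfx1 regions thus lay mostly at promoters marked in both.

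Among promoters marked in both, NPC H3K27ac was enriched at 98.3% of Rfx1 regions and at 92.7% of other promoters, with median log2 differences from ES cells of 0.71 and 0.45. The classes marked in only 1 of the cell types differed more. Here alone means that the other cell type stayed under the limit of 4 RPM in 1 kb, not that it lacked the mark. In ES-only windows the median liver H3K4me3 in 2 kb was 2.79 RPM at Rfx1 regions and 0.887 RPM at other promoters. In liver-only windows the median ES H3K4me3 was 3.45 and 0.862 RPM. Rfx1 regions and other promoters were thus not matched within these classes. With H3K4me3 in ES cells alone, 98.6% of Rfx1 regions and 47.2% of other promoters were enriched in NPC H3K27ac, and the median log2 differences were 0.13 and -2.86. With H3K4me3 in liver alone the shares were 89.1% and 42.9% and the differences 0.85 and -1.01. Other promoters with ES-only H3K4me3 were mostly called lower in NPCs (79.2%), and of the 69 Rfx1 regions in that class 17 (24.6%) were called lower and 19 (27.5%) higher. The 69 are few, so that 1 region is more than 1% of the class. Other promoters of these classes entered through H3K4me3 in 1 cell type alone, whereas Rfx1 regions also needed reads in NPCs. A lower NPC level at other promoters was thus favoured in advance, and these contrasts are a description.

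**Figure D2:**
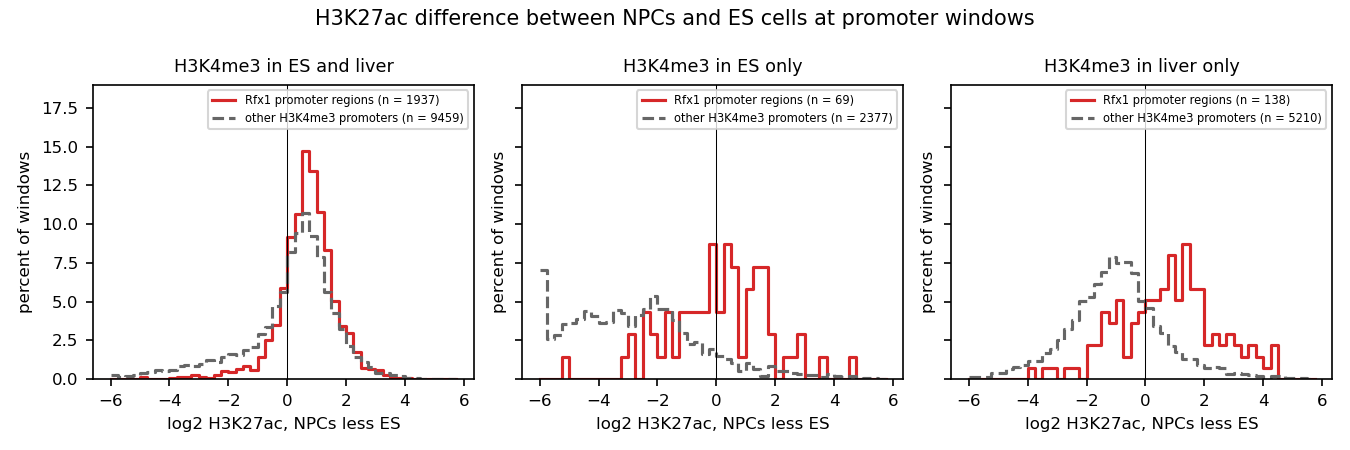
Distribution of the log2 difference in H3K27ac, NPCs less ES cells (horizontal axis), as percent of windows per 0.25 log2 (vertical axis), for promoters with H3K4me3 in both ES cells and liver, in ES cells only and in liver only. Values beyond the ends are placed in the end bins. Rfx1 promoter regions (red) and other promoters (grey, dashed) have medians of 0.71 and 0.45, 0.13 and -2.86, and 0.85 and -1.01 in the 3 panels.

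The share of promoters with an Rfx1 region climbed with NPC H3K27ac. Among all promoter windows ranked by NPC H3K27ac, Rfx1 regions made up 0.15% of the lowest 25%, 4.57% of the next, 16.8% of the next and 22.7% of the highest 25%. Regions were chosen by their Rfx1 reads in NPCs, and at other promoters such reads also rose with NPC H3K27ac. The climb may thus be favoured in part by the choice of regions, which was not tested. Within the highest 25%, Rfx1 regions and other promoters had like differences from ES cells, with median log2 values of 0.86 and 0.88. In the 25% below it the values were 0.63 and 0.54, and in the 25% below that, with 231 Rfx1 regions, -0.50 and -1.16. In the lowest 25%, with only 6 Rfx1 regions tested, the order was reversed, at -3.06 and -2.09. When windows were ranked by ES H3K27ac instead, the medians in the highest 25% were 0.50 at Rfx1 regions and 0.08 at other promoters, and in the lowest 25% 1.34 and -0.69. Levels still differed within a rank: in the lowest 25% the ES medians were 1.71 and 2.50 RPM at Rfx1 regions and 1.25 and 1.43 RPM at other promoters. Within the same 25% by ES H3K27ac, Rfx1 promoter regions had the higher median difference in NPCs, and in the upper ranks of NPC H3K27ac the medians were close. Each ranking used a level that is itself a term of the difference. The medians within a rank are therefore shaped in part by the ranking, and are given as a description.

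Within the chosen regions, more Rfx1 reads did not go with more H3K27ac. In steps of 25% of the regions, from the fewest Rfx1 reads to the most, the median NPC H3K27ac was 54.3, 43.8, 41.2 and 38.8 RPM in 2 kb. The first ES library gave 15.7, 14.4, 12.0 and 11.3 RPM and the second 23.8, 20.2, 17.6 and 16.4 RPM in the same order. All 3 libraries were therefore highest at the weakest Rfx1 regions. The share called higher in NPCs had no such order, at 60.1%, 52.1%, 54.6% and 56.1%. At other promoters Rfx1 rose with NPC H3K27ac. From the lowest to the highest 25% of all windows by NPC H3K27ac, their median Rfx1 was 0, 4.32, 10.1 and 17.3 RPM in 2 kb. The extract used in the rule came from ES cells, and the part of NPC background in the Rfx1 reads was not tested.

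Liver H3K27ac was set against the same ES libraries. By limma, 379 Rfx1 promoter regions were called higher in liver, where 32.2% of all windows were, and 841 were called lower, where 36.1% were. The median log2 difference was -0.34, against -0.10 over all windows. Its order against other promoters changed with the ES level. Ranked by ES H3K27ac in steps of 25%, from low to high, the liver medians were -0.31, -0.28, -0.07 and -0.48 at Rfx1 regions and 2.63, -0.12, -0.16 and -0.68 at other promoters. By H3K4me3 class they were -0.30 and -0.19 where both ES cells and liver were marked, -2.98 and -3.54 for ES cells alone, and -0.27 and 2.41 for liver alone. Rfx1 regions were thus below other promoters in some ranks and classes and above them in others. The ES level is a term of this difference, and H3K4me3 in ES cells or liver set the classes. Rfx1 regions also needed reads in NPCs, so these orders are in part set by the choice of windows.

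Scaling on bins free of H3K4me3 and Rfx1 turned the sign of the regions' median to 0.50, and the median of all windows to 0.73. Under that scaling the higher calls made up 45.5% of all calls at the regions, against 31.1% before, and 62.5% over all windows, against 47.2% before. The NPC and liver comparisons share the ES libraries and are given side by side only.

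Mean H3K27ac was somewhat lower at the centre of the Rfx1 promoter regions than beside it. The centre here is the midpoint of a region's bins, which can lie off the Rfx1 peak. A small shift can therefore not be placed relative to that peak. Mean NPC H3K27ac was 41.6 RPM per kb at 50 bp from the centre, 42.5 at 150 bp and 7.01 at 950 bp. In the first ES library and in liver the maximum lay at 250 bp, at 11.1 and 12.0 RPM per kb, against 10.6 at 50 bp in both. In the second ES library it lay at 150 bp, at 18.5 RPM per kb, against 18.2 at 50 bp. At other promoters, which are centred on their highest H3K4me3 bin, the maximum lay at the centre in all 4 libraries. Total H3 in ES cells was lowest at the centre of the Rfx1 regions, at 0.201 RPM per kb, against 0.417 at the centre of other promoters. Liver H3 was also lowest there, at 0.374 against 0.561 RPM per kb. MEF H3 went the other way, with its maximum at the centre of both, at 1.13 and 1.15 RPM per kb. Windows centred on different features differ in where a maximum can fall, and this part of the difference was not tested.

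**Figure D3:**
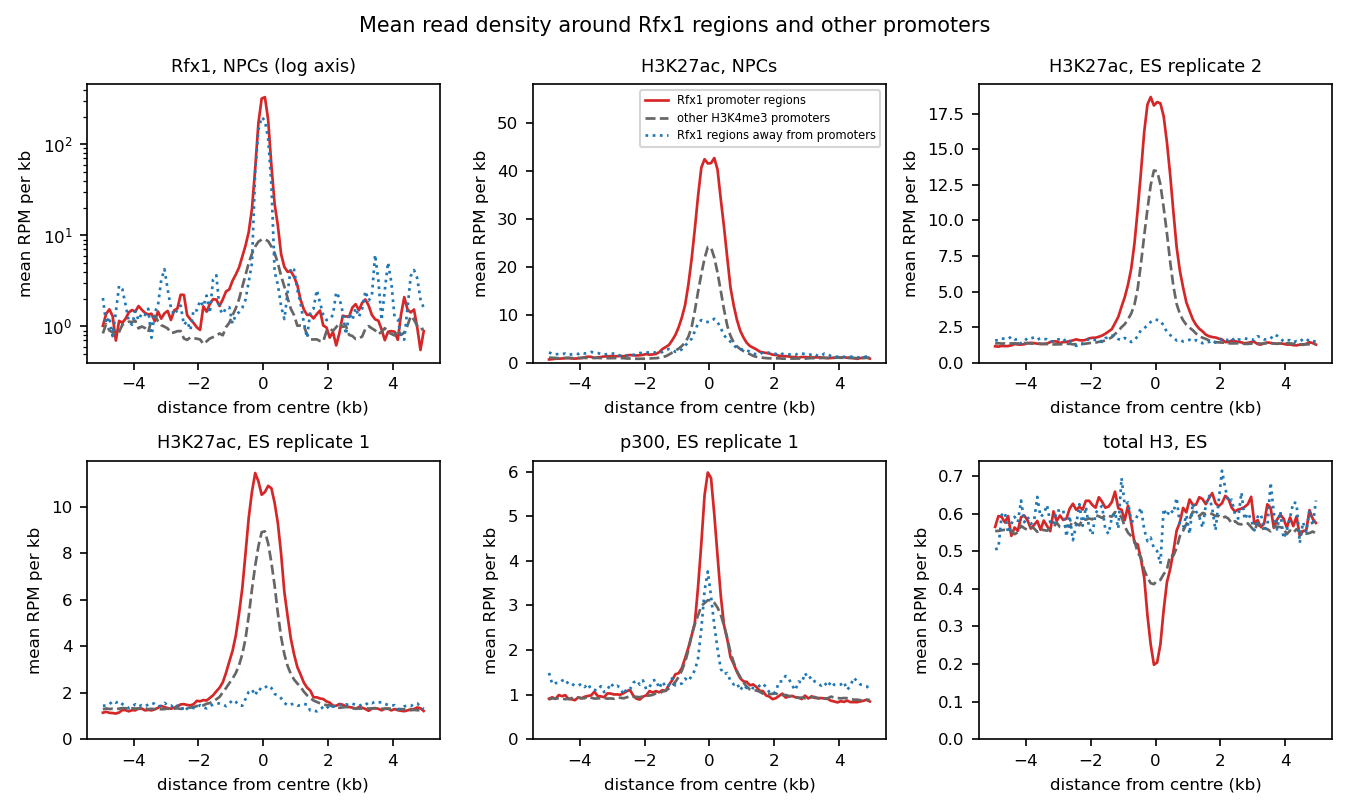
Mean read density (RPM per kb, vertical axis, a log axis for Rfx1 only) against distance from the centre in kb, in 100 bp steps, for Rfx1 promoter regions (red), other H3K4me3 promoters (grey, dashed) and Rfx1 regions away from promoters (blue, dotted). Vertical scales differ between panels. H3K27ac has a shallow dip on the Rfx1 centre in NPCs and in the first ES library. There p300 has a narrow peak (5.92 RPM per kb against 3.12 at other promoters). Total H3 of ES cells has a trough (0.201 against 0.417).

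The acetyltransferase p300, mapped in ES cells, formed a narrow peak at the positions of the NPC Rfx1 peaks. Its median in 2 kb was 5.17 and 4.00 RPM in the libraries at Rfx1 promoter regions, 3.88 and 3.15 RPM at other promoters and 2.73 and 2.18 RPM at Rfx1 regions away from promoters. Both libraries gave the same order. The region was enriched over its flanks in both p300 libraries in 78.9% of cases, against 56.8% of all promoter windows. Centring the windows on H3K4me3 in place of Rfx1 lowered the share to 72.5%, and asking for 3-fold lowered it to 56.4%.

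The p300 peak was sharper than that of H3K27ac. Mean density in the central 300 bp over that 300 to 1000 bp away was 2.71 and 2.43 for p300, 1.57 and 1.99 for ES H3K27ac and 2.28 for NPC H3K27ac. At other promoters, centred on H3K4me3, it was 1.52 and 1.37 for p300, so that p300 was more peaked at Rfx1 regions. H3K27ac was less peaked there (2.16 and 2.69 in ES cells and 3.34 in NPCs at other promoters). The part of the centring in these ratios was not tested. Centred on H3K4me3, median p300 in 1 kb at Rfx1 regions fell from 3.59 and 2.67 to 3.16 and 2.31 RPM, against 2.44 and 1.82 RPM at other promoters. Away from promoters p300 also peaked on the Rfx1 centre, at 3.48 and 2.51 RPM per kb, and had fallen to 1.16 and 0.981 by 950 bp. ES whole cell extract was flat across the Rfx1 promoter regions, with a ratio of 1.03, although its level had entered the choice of regions. The p300 libraries were not tested against whole cell extract for that reason. Rfx1 itself was mapped in NPCs only, so whether Rfx1 lay at these positions in ES cells was not analysed here.

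Median H3K4me1 in ES cells had no common order between the Rfx1 promoter regions and other promoters. At the Rfx1 promoter regions it lay above the genome mean of 0.812 RPM per 2 kb. So did ES whole cell extract, with a median of 1.44 RPM at both kinds of promoter, so that mean is no measure of background here. The 3 ES libraries had medians of 2.61, 3.51 and 2.42 RPM in 2 kb, and 2.71, 3.30 and 2.90 RPM at other promoters, so that replicate 2 was higher and the others lower at Rfx1 regions. The region was enriched over its flanks in all 3 libraries in 13.8% of cases, against 20.0% of all promoter windows. In single libraries of other cells the shares were 53.6% in iPS cells, where all windows gave 46.5%, 72.3% in MEFs, where all gave 62.7%, and 59.7% in liver, where all gave 63.5%. A single library passes more easily than 3 together, so these shares do not rank the cell types. Total H3 in ES cells passed at 1.17% of regions and 2.56% of all windows. MEF H3 passed at 27.4% and 25.9%, liver H3 at 5.59% and 10.1%, and liver whole cell extract at 36.6% and 29.6%. The MEF and liver shares thus stand on a higher background than those of ES cells.

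The shape of H3K4me1 at the centre differed among libraries of the same mark, and among the 3 ES libraries. In ES replicates 1 and 3 H3K4me1 dipped at the Rfx1 centre, to 1.2 and 0.592 RPM per kb, and rose to 2.13 and 2.19 at 1250 and 1150 bp. In replicate 2 it peaked at the centre, at 2.97 RPM per kb. The ratio of centre to shoulders was 0.744, 1.54 and 0.364 in the 3 ES libraries, against 0.645, 0.861 and 0.677 at other promoters. Thus ES replicate 2 went the opposite way to the others at the Rfx1 regions, and at other promoters all 3 were below 1.

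Outside ES cells the same contrast appeared. H3K4me1 peaked on the Rfx1 centre in iPS cells (4.57 RPM per kb, ratio 2.17) and MEFs (3.96 RPM per kb, ratio 1.68), and it dipped in liver (2.10 RPM per kb, ratio 0.630). At other promoters the ratios were 0.938, 1.22 and 1.03. Per the labels all 6 libraries used the same catalogued antibody. Liver whole cell extract, with no antibody, also had a raised centre, with a ratio of 1.63 at Rfx1 regions and 1.40 at other promoters, whereas that of ES cells had 1.03 and 1.06. The part of such a background in the H3K4me1 peaks was not tested, and iPS and NPC background libraries were not analysed here.

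**Figure D4:**
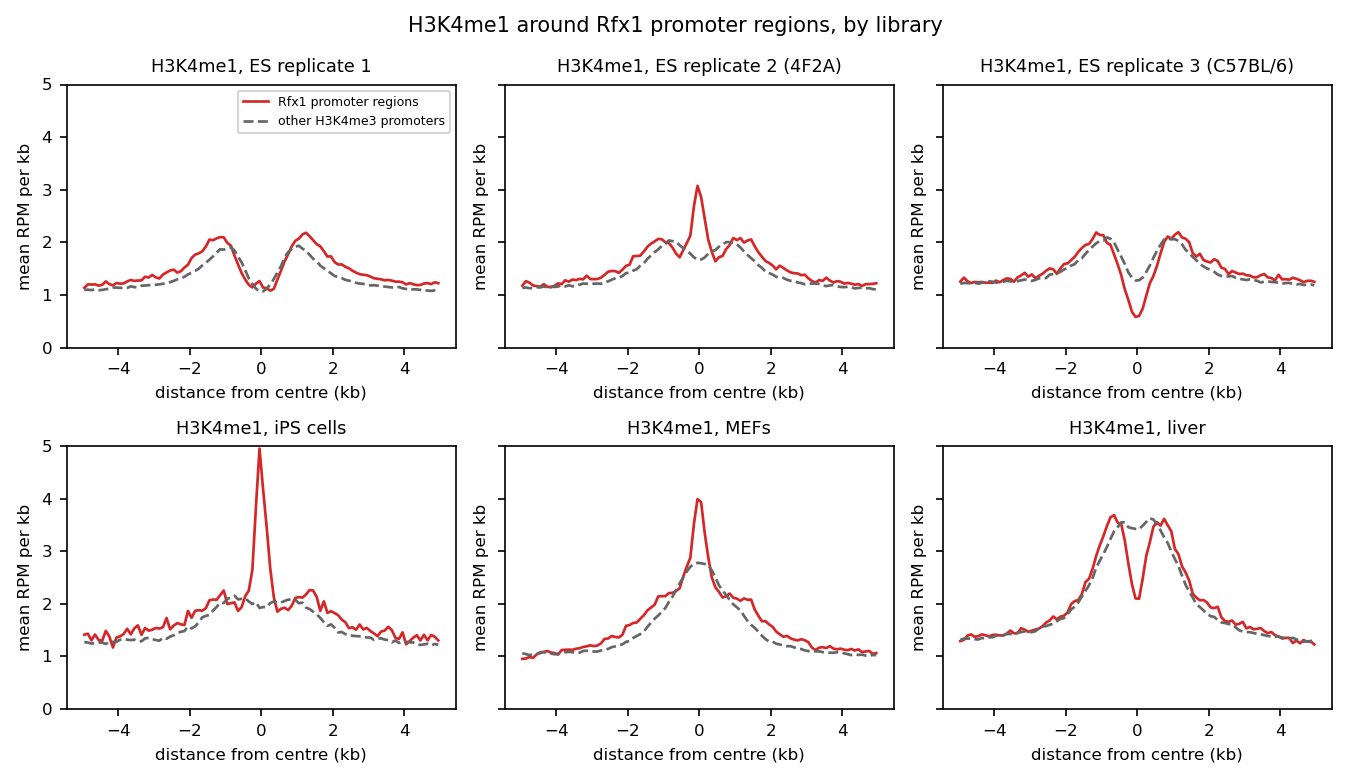
Mean H3K4me1 density (RPM per kb, vertical axis, the same scale in all panels) against distance from the centre in kb, for Rfx1 promoter regions (red) and other H3K4me3 promoters (grey, dashed), 1 panel per library. The centre is a trough in ES replicates 1 and 3 and in liver, and a narrow peak in ES replicate 2, iPS cells and MEFs, with centre to shoulder ratios of 0.744, 0.364, 0.630, 1.54, 2.17 and 1.68.

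Few Rfx1 promoter regions passed the test of H3K4me1 against the 3 ES libraries with limma. In liver, 22 were called higher, where 5.74% of all windows were, and 28 lower, where 8.75% were. In MEFs, 40 were called higher, where 3.15% of all windows were, and 8 lower, where 6.70% were. In iPS cells limma called 0 in either direction, as over all windows (0%), while 124 regions were above and 89 below ES cells at an unadjusted p under 0.05, where 481 and 1483 of all 19151 windows were. By limma-voom the count was 0 as well, and without adjustment 115 regions were above and 4 below at that limit, where 411 and 59 of all windows were. The median log2 differences of the regions were 0.06 in liver, 0.21 in MEFs and 0.22 in iPS cells, and 0.05, 0.06 and -0.03 over all windows.

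These counts moved with each ES library, most with replicate 3, the C57/B6 line. Without replicate 1, 2 regions were called higher and 13 lower in liver and 7 and 2 in MEFs, where the shares of all windows were 2.69% and 5.51%, and 0.643% and 2.84%. Without replicate 2 the counts were 11 and 16 in liver and 18 and 2 in MEFs, where all windows gave 3.28% and 6.27%, and 1.28% and 4.37%. Without replicate 3, 184 regions (8.58%) were called higher and 305 (14.2%) lower in liver, where 17.2% and 18.4% of all windows were. In MEFs the counts were then 236 (11.0%) and 70 (3.26%), where all windows gave 15.1% and 13.7%. In iPS cells they were 108 (5.04%) and 83 (3.87%), where all windows gave 2.45% and 5.73%. A gap of 2-fold or more between ES replicates 1 and 2 was seen at 5.83% of the regions, between 1 and 3 at 20.1%, and between 2 and 3 at 23.5%. Over all windows the shares were 5.21%, 17.9% and 17.7%. Without trimmed-mean scaling, 492 regions (22.9%) were called higher and 15 (0.700%) lower in liver, where 29.1% and 5.43% of all windows were, and 82 (3.82%) and 2 (0.0933%) in MEFs, where 6.37% and 5.12% were. The higher calls then made up 97.0% and 97.6% of all calls at the regions, against 44.0% and 83.3% with the scaling. Over all windows they made up 84.3% and 55.4%, against 39.6% and 32.0%.

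Single regions show the range behind these counts. Their levels are compared in RPM, which is not scaled between libraries, whereas the log2 gaps are given after trimmed-mean scaling unless another is named. Coordinates are those of the files, 1-based, in a mouse build that is not given in the sources used here, and no gene was assigned to them. The region with the most Rfx1 reads was chr16:90823501-90824000, with 447 reads. Its H3K27ac was 50.9 RPM in NPCs, 11.0 and 21.3 RPM in the ES libraries and 17.0 RPM in liver. NPCs were above all 3 others, and the log2 gap to ES cells was 1.04 (SE 0.26, limma adjusted p = 0.0015), a call lost with scaling on bins free of H3K4me3 and Rfx1, where the gap itself was larger, at 2.06 (limma adjusted p = 0.14).

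Next among those with low whole cell extract came chr2:30480001-30481000, with 395 reads and H3K4me3 in liver alone. H3K27ac there was 103 RPM in NPCs, 22.5 and 31.9 RPM in ES cells and 18.2 RPM in liver, and NPCs less ES cells came to 1.25 on the log2 scale (SE 0.21, limma adjusted p = 2.5e-05), likewise lost under that scaling at a larger value of 2.27 (limma adjusted p = 0.15). At chr1:88265501-88266000, with 389 reads, H3K27ac was 73.8 RPM in NPCs, 10.6 and 13.6 RPM in ES cells and 18.8 RPM in liver, a log2 gap of 1.92 (SE 0.25, limma adjusted p = 6.1e-07). NPCs led at both in RPM. At chr11:116397501-116398000, with 386 reads, the values were 24.5, 8.78, 11.5 and 2.38 RPM in the same order. NPCs were again highest, but the difference of 0.59 (SE 0.36) did not pass (limma adjusted p = 0.16).

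The largest rises in NPCs started from regions with H3K27ac below the regions' medians of 13.2 and 19.2 RPM in ES cells. At chr5:140861001-140861500, which had 85 Rfx1 reads, H3K27ac was 76.8 RPM in NPCs, 1.94 and 2.98 RPM in the ES libraries and 9.31 RPM in liver, and the log2 gap was 4.19 (SE 0.38, limma adjusted p = 2.4e-09). At chr8:24273501-24274000, with 184 Rfx1 reads, it was 62.0 RPM in NPCs, 2.05 and 3.57 RPM in ES cells and 13.1 RPM in liver, a difference of 3.72. At chr15:27969001-27969500, with 28 Rfx1 reads, it was 96.6 RPM in NPCs, 3.42 and 7.85 RPM in ES cells and 16.6 RPM in liver, a difference of 3.47. These regions were chosen for their rise, so NPCs lying above the ES pair was fixed in advance. Liver lay between the ES pair and NPCs in all 3, an order that low ES values also favour. Their p300 in ES cells was 5.17 and 4.85, 4.60 and 3.52, and 2.01 and 1.21 RPM in 2 kb, so the last 2 lay below the median of the regions in both libraries.

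The largest falls had Rfx1 reads in NPCs over promoters with little NPC H3K27ac. At chr11:117705001-117705500, with 19 Rfx1 reads and H3K4me3 in ES cells alone, H3K27ac was 2.94 RPM in NPCs, 54.0 and 82.2 RPM in ES cells and 1.98 RPM in liver, a log2 value of NPCs less ES cells of -5.02 (SE 0.30, limma adjusted p = 4.5e-12). Its p300 was 36.1 and 30.8 RPM. At chr7:80060501-80061000, with 85 Rfx1 reads, H3K27ac was 2.64 RPM in NPCs, 51.2 and 62.4 RPM in ES cells and 36.0 RPM in liver, a difference of -4.92. At chr9:63848001-63848500, named after its values were seen in place of a region of high whole cell extract, it was 1.91 RPM in NPCs, 22.7 and 22.4 RPM in ES cells and 45.7 RPM in liver, a difference of -4.00. NPCs lying below the ES pair follows from the choice of these regions. Liver lay above NPCs in each except the first, where NPCs and liver were both low.

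**Figure D5:**
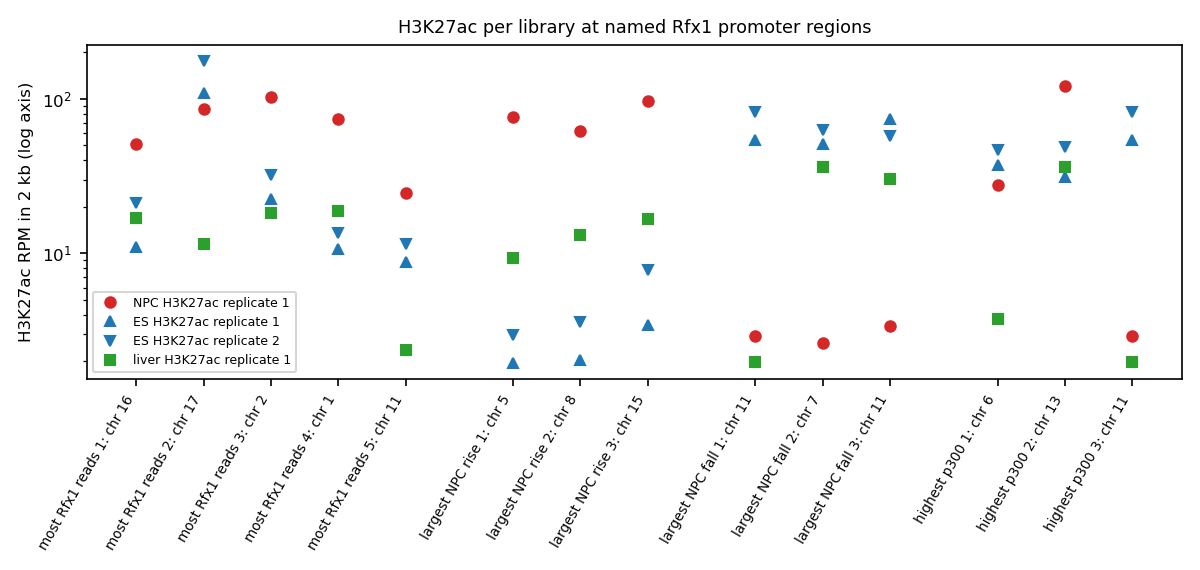
H3K27ac in 2 kb (RPM, log axis) in each library at named Rfx1 promoter regions, given by list, rank and chromosome on the horizontal axis. Red circles are NPCs, blue triangles the ES libraries and green squares liver. The NPC value is above both ES values at 4 of the 5 regions with the most Rfx1 reads and at the 3 largest rises (62.0 to 96.6 RPM), and below them at the 3 largest falls (2.64 to 3.38 RPM).

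At 8 regions the ES whole cell extract reached at least 2 RPM in the strongest bin. They lay at chr17:39451001-39455500, chr17:39456001-39457000, chr11:3035501-3036000, chr11:3093001-3094000, chr11:4169001-4169500, chr11:108827501-108828500, chr3:5843501-5844000 and chr5:146565001-146566000. The first held 415 Rfx1 reads, 319 and 226 RPM of p300 and 43.9, 121 and 128 RPM of ES H3K4me1 in 2 kb, but also 93.3 RPM of whole cell extract in ES cells and 163 RPM in liver. Regions of this kind headed the rankings for p300 and ES H3K4me1, and 7 of the 8 were called lower in NPC H3K27ac, among them chr11:4169001-4169500 (3.38 RPM in NPCs, 74.0 and 57.6 RPM in ES cells). Left out, 1194 regions were still called higher and 152 of 2136 lower in NPCs, and the p300 centre ratios were 2.71 and 2.41.

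Below them, and chosen after their values were seen, the highest p300 stood at chr6:122305501-122306000 (34.8 and 40.8 RPM), chr13:81349001-81349500 (43.3 and 31.9 RPM) and chr11:117705001-117705500, described above. H3K27ac at the first was 27.6 RPM in NPCs and 37.4 and 46.4 RPM in ES cells, and at the second 122 RPM in NPCs and 31.3 and 48.4 RPM in ES cells. High p300 in ES cells thus occurred at regions where H3K27ac was lower in NPCs and at 1 where it was higher. The log2 differences at chr6 and chr13 were -1.27 and 0.96. They were -0.59 and 1.64 without trimmed-mean scaling, and -0.25 and 1.98 with scaling on bins free of H3K4me3 and Rfx1. Both calls were lost under each of these scalings, with the sign kept.

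The lowest ES H3K4me1 was at 3 regions that carried H3K27ac in NPCs and ES cells. The region chr7:132960501-132961500 had 0.101, 0.532 and 0 RPM of H3K4me1 in the ES libraries (1, 5 and 0 reads) beside 131 RPM of H3K27ac in NPCs and 36.7 and 69.7 RPM in ES cells. At chr3:22267501-22268000 ES H3K4me1 was 0, 0.852 and 0 RPM beside 104 RPM of H3K27ac in NPCs and 45.3 and 69.1 RPM in ES cells, and p300 was 26.7 and 15.4 RPM. At chr9:96173501-96174000 it was 0, 1.17 and 0.161 RPM beside 43.5 RPM of H3K27ac in NPCs and 9.92 and 15.1 RPM in ES cells, which lay below the regions' medians in all 3 libraries. A count of 0 allows up to 0.302 RPM in the first ES library and 0.484 RPM in the third (3 reads, counting error only), so H3K4me1 at these 3 regions was under the floor in both.

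At the edge of the rule, the regions with 15 reads and the highest fold were chr2:162746001-162746500, chr4:8617001-8617500 and chr3:30984001-30984500. Their NPC H3K27ac was 35.1, 78.4 and 116 RPM, and the ES pairs were 72.8 and 89.8, 7.41 and 12.1, and 25.7 and 47.6 RPM. Just outside, with 14 reads, chr19:56775001-56775500, chr19:42572001-42572500 and chr19:7123501-7124000 had 56.2, 32.4 and 24.8 RPM in NPCs. Values on either side of the limit overlapped.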

How the data were processed

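The files the authors deposited list 1 signed position per aligned read, a minus sign marking the reverse strand, and hold no counts or scores. Per the labels, chromatin of about 500 bp was amplified by 18 PCR cycles and fragments of 200 to 350 bp were sequenced. No aligner or build is named in the sources used here. Reads repeating a position and strand were counted once, moved 100 bp toward the fragment centre and expressed as RPM. The regions, lists and tests were chosen with earlier results of these data known. Regions were named by rank (most Rfx1 reads, largest NPC rise and fall among called regions of above-median level, highest p300, highest and lowest ES H3K4me1, nearest to the read limit). Intervals and floors cover counting error only, and the floor is 3 reads.

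Reads in 2 kb windows, at least 10 in 1 library, were turned into log2 CPM (prior count 2, trimmed mean of M-values) and tested with limma 3.58.1 (trend) in R 4.3.3, with Benjamini-Hochberg adjustment over all promoter windows. Windows were centred on the Rfx1 region, or at other promoters on the bin with the most H3K4me3. Residual degrees of freedom were 1 for H3K27ac and 2 for H3K4me1, and single libraries were assumed to vary like ES libraries. Separate cultures are not stated for the ES libraries, so their spread, and each p-value, may reflect technical variation only. Code was tested on simulated data. The second p300 library is named p301 in 1 label field and p300 in the others. No gene, sequence or annotation was attached, since the tables at hand are of another build. Alternatives covered scaling, window, filter, prior count, repeated reads, centring, thresholds and leaving out ES libraries.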

Additional observations from a re-analysis of the deposited data

How the results depend on the processing

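The number of Rfx1 promoter regions was 9163 with all repeated reads kept, 4180 at 10 or more Rfx1 reads and 1357 at 25 or more. NPC H3K27ac was called higher at 411 with background scaling (bins free of H3K4me3 and Rfx1) and lower at 43 without trimmed-mean scaling and 17 with background scaling. Its median relative to all windows was 0.92 with repeated reads kept. Liver H3K27ac was called higher at 140 and 126 and lower at 372 and 151 under those scalings, and its median turned to 0.50 under the second. Leaving out each ES H3K27ac library moved the NPC median from 0.58 to 0.76, its value relative to all windows from 0.65 to 0.85, and the liver median from -0.38 to -0.28, with no test possible. Liver H3K4me1 was called higher at 492 without trimmed-mean scaling, 96 with limma-voom, 101 in 4 kb windows and 13 with a prior count of 0.5, and lower at 15 without that scaling and 121 in 4 kb windows. Leaving out each ES library gave 2 to 184 higher and 13 to 305 lower, and a median of -0.036 to 0.14. Its median relative to all windows turned to -0.0030 with limma-voom, -0.027 in 4 kb windows and -0.050 without ES replicate 3, with a range of -0.050 to 0.072. MEF H3K4me1 was called higher at 82 without trimmed-mean scaling, 166 with limma-voom and 178 in 4 kb windows, and lower at 2, 24 and 40. Leaving out ES libraries gave 7 to 236 higher, 2 to 70 lower and a relative median of 0.059 to 0.22. iPS H3K4me1 was called lower at 1 in 4 kb windows and 4 with a prior count of 0.5, with 0 to 108 higher and 0 to 83 lower on leaving out ES libraries. Its relative median was 0.13 in 4 kb windows and 0.16 to 0.33 on leaving out ES libraries. The cause of these changes was not tested.

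The share enriched at 3-fold was 95.9% for NPC H3K27ac, 83.6% for ES H3K27ac, 83.0% for liver H3K27ac, 56.4% for p300 and 5.36% for ES H3K4me1, where all windows gave 66.8%, 65.7%, 72.8%, 34.9% and 8.91%. With 1 RPM per kb added the shares were 96.2%, 86.2%, 82.3%, 58.7% and 2.94% in the same order, where all windows gave 63.5%, 65.5%, 71.6%, 34.4% and 5.47%. Flanks 4 to 6 kb away gave 92.7% for ES H3K27ac, and centring on H3K4me3 gave 72.5% for p300. Centred on the median Rfx1 read, a choice made after seeing the data, the p300 centre ratios were 2.99 and 2.64. Leaving out regions of high whole cell extract, also chosen after seeing the data, kept the sign of the H3K27ac medians, and each centre ratio stayed on its side of 1 except that of ES whole cell extract (0.992). Of the 26 named regions, chr3:5843501-5844000, which did not pass the test, turned from -0.56 to 0.065 and 0.38 in NPC H3K27ac without trimmed-mean scaling and with background scaling. Over the alternatives with a test, 223 values at named regions kept direction and side of the threshold and 27 no longer passed. The 52 values from leaving out an ES library have no test, and all 52 kept their sign. No paired analysis was possible because NPCs, liver, MEFs and iPS cells had 1 library each, so that groups compared share fewer than 2 replicate numbers. The Rfx1 library held 694055 distinct reads, and 548 regions held 15 to 19 of them in the strongest bin.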

Other observations

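The share of H3K4me3 promoter domains with an Rfx1 region differed between chromosomes. It was lowest on chromosome 14, at 6.94% (Wilson 95% interval 5.26 to 9.11%), and highest on chromosome 12, at 15.8% (13.3 to 18.7%), and 11.0% overall. Domains with an Rfx1 region had a median width of 2000 bp, against 1500 bp for those without. Reads at the regions repeated a position somewhat more often than in the library as a whole, with 4.10 reads per distinct read against 3.63.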
